A study of Medicago truncatula with 6 samples.

Results

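A set of 52 genes, of 50897 listed, was lower in root hairs of Medicago truncatula after 4 h of Nod factor (NF) than in both the water control and the 20 h treatment. A gene was taken as a member where the control library held at least 3 counts per 1000000 counted read pairs (CPM) and where the higher of both NF 4 h libraries reached at most 0.67 times the control and at most 0.67 times the lower NF 20 h library. The lower NF 20 h library also had to stay under 2 times the control, and genes of the study's ion transport and redox tables were left out. All 5 libraries analysed were used by this rule, so the levels below describe the members and are not tests of the pattern.

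The plants were 5-day-old wild-type seedlings of ecotype Jemalong A17, and each library held mRNA of root hairs pooled from 100 plants, taken from root segments of about 4 cm with 0.5 cm of tip removed. Each plant was given 50 µl of solution on its root, either sterile water (control, replicate 2) or 10 nM NF for 4 h or 20 h (replicates 1 and 2 of each). The label of the control carries 4 h and the methods give no duration for the water, so an effect of NF at 20 h and an effect of the time since the liquid was applied cannot be told apart. Root hairs of all treatments were collected at the same age and hour of the light period. The control has 1 library here, with no measure of its own spread, and control replicate 1 is not analysed here.

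Nod factors are lipochitooligosaccharides released by rhizobia and are perceived at the epidermis of legume roots by LysM receptor kinases. Their perception sets off calcium oscillations in the nucleus and changes in transcription, and root hairs swell at the tip, then branch and curl around the bacteria. Such growth draws on new ribosomes, on chaperones that fold cytoskeletal proteins, on enzymes that loosen pectin in the wall, and on hormone responses. The 9 annotated members include names of the ribosome, chaperone and pectin classes, and a protein named for binding auxin. Whether these genes take part in the growth was not tested.

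The libraries held between 39199411 and 47302574 counted pairs. A count of 3 was worth 0.0634 to 0.0765 CPM, a floor that covers counting error only. Of 10 orthologs of root hair genes, 9 reached 3 CPM in the control, and their summed level was 3785 CPM in the control, 4411 and 4286 CPM at NF 4 h and 4531 and 4448 CPM at NF 20 h. SUNN, a marker of the stele, lay between 0 and 0.154 CPM. The summed level of 4 genes annotated with the root cap was 525 CPM in the control, 577 and 745 CPM at NF 4 h and 788 and 1320 CPM at NF 20 h. No member is on these lists, and the part of root cap RNA in the members' levels was not tested. Since the samples are bulk RNA, fewer cells of a type and less RNA per cell cannot be told apart.

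The control stood at 3 CPM or more for 14082 genes. The higher NF 4 h library was at most 0.67 of the control for 388 of them (2.76%), and 54 of these also lay at most at 0.67 of the lower NF 20 h library. The other 334 genes were low at 4 h without being clearly higher at 20 h. Of the 54 genes, 1 exceeded the upper limit at 20 h, and 1, the transporter gene Medtr6g092840 of the HKT family, is in the transport table. The members thus made up 0.369% of the genes at this level. The opposite shape, high at 4 h only under the mirrored limits, was met by 26 genes.

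**Figure D1:**
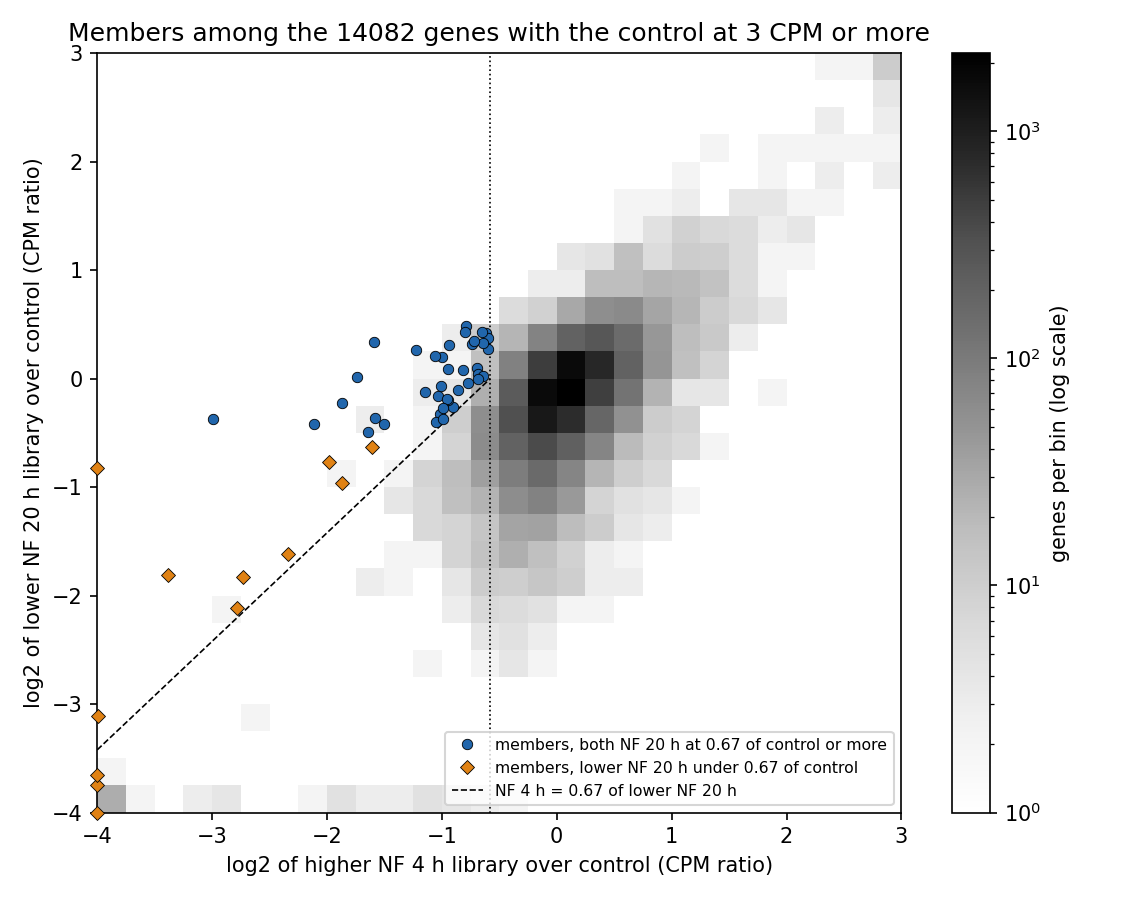
Each axis is the log2 of a CPM ratio to the control, for the higher NF 4 h library (horizontal) and the lower NF 20 h library (vertical); grey squares count the 14082 genes per bin on a log colour scale, circles and diamonds are the 52 members, the dotted line is the limit of 0.67 against the control and the dashed line the limit against NF 20 h, and values beyond the frame are drawn on its edge. The 40 circles sit near 0 on the vertical axis, and most of the 12 diamonds spread downward near the dashed line. The diamond of Medtr6g088715 lies at the left edge, well above that line.

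The members were mostly genes of low level. Their control value ran from 3.005 to 109 CPM with a median of 6.79 CPM, where the median of all 14082 genes was 22.1 CPM. A share of 63.5% (33 members) lay under 10 CPM, against 27.7% of the 14082 genes, and 2 members lay above 50 CPM. Per kilobase of transcript (FPKM), the median control level was 5.70 in the members and 12.9 in the 14082 genes, and the median transcript length was 1420.5 and 1738.5 bases. Only 9 members carry an annotation in the study's supplement. The other 43 are given by identifier alone, with no role.

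Summed over the 52 members, the level was 687 CPM in the control, 287 and 327 CPM at NF 4 h and 727 and 660 CPM at NF 20 h. The NF 20 h libraries lay on either side of the control, and both NF 4 h libraries lay below all 3. The higher NF 4 h library stood at a median of 0.496 of the control (range 0 to 0.661), where the median of the 14082 genes was 1.04. At most 0.5 of the control was left in 28 members and at most 0.25 in 11. In 18 members the higher NF 4 h library was at most 0.5 of both the control and the lower NF 20 h library.

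The name of the set, a dip with recovery, held for most members and not for all. In 40 members both NF 20 h libraries were at 0.67 of the control or more. The summed level of these 40 genes was 610 CPM in the control, 278 and 317 CPM at NF 4 h and 694 and 632 CPM at NF 20 h. In the other 12 at least 1 NF 20 h library stayed under that limit, since the rule sets no lower limit against the control at 20 h. Both NF 20 h libraries were above the control in 21 members and below it in 17, and the control fell between them in 14.

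**Figure D2:**
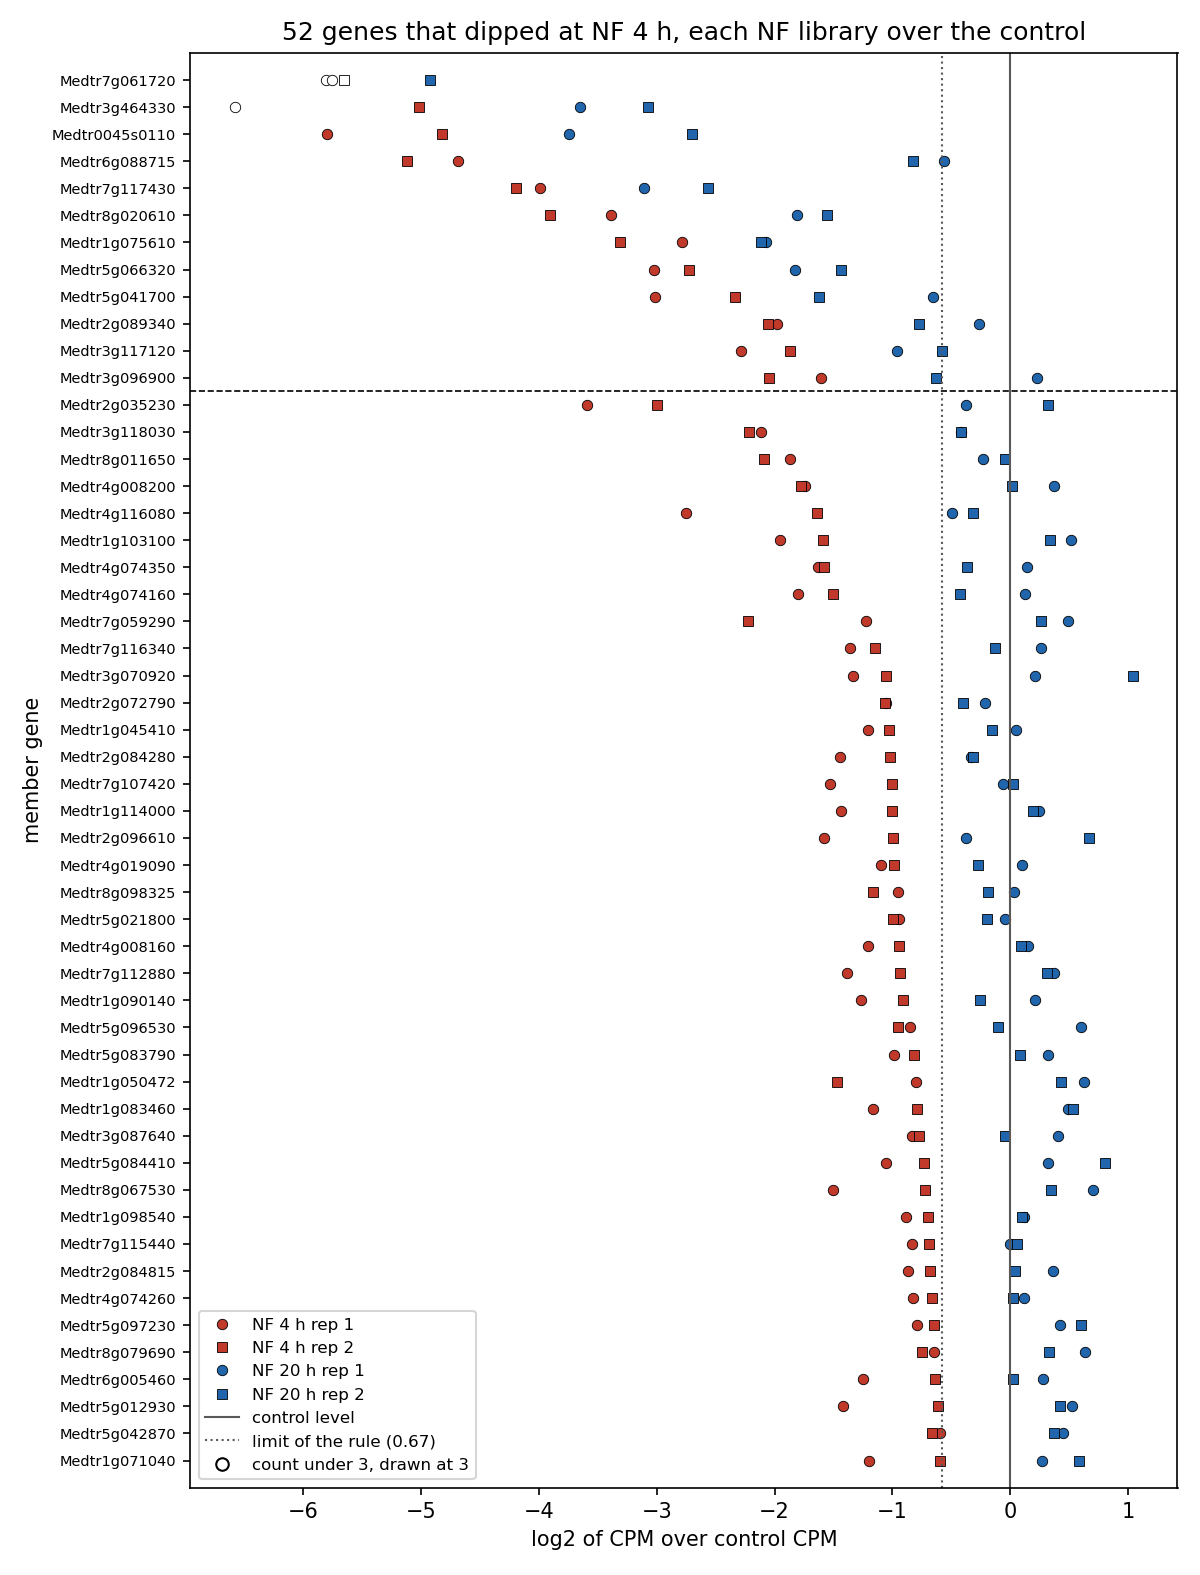
Each line is 1 of the 52 members, and the horizontal axis is the log2 of its CPM in an NF library over its CPM in the control; red marks NF 4 h, blue NF 20 h, circles replicate 1 and squares replicate 2, and open symbols are counts under 3 drawn at 3. Below the dashed line, the 40 members have both blue symbols at or right of the limit of 0.67, and above it the 12 others have at least 1 blue symbol to its left.

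Among the annotated members, both genes of ribosomal proteins returned to a level above the control. Medtr1g103100 encodes the 40S ribosomal protein S3a-1, a structural protein of the small subunit. It stood at 22.3 CPM in the control, at 5.74 and 7.42 CPM at NF 4 h and at 31.9 and 28.1 CPM at NF 20 h. Both NF 4 h libraries lay far below the other 3, and both NF 20 h libraries lay above the control. Medtr1g083460, for the 60S ribosomal protein L18-3 of the large subunit, stood at 19.8 CPM in the control, at 8.81 and 11.4 CPM at NF 4 h and at 27.8 and 28.6 CPM at NF 20 h. The order of the libraries was the same, with a shallower dip. The fitted log2 change from control to NF 4 h was -1.76 (SE 0.21) for Medtr1g103100 and -0.97 (SE 0.20) for Medtr1g083460, and that from NF 4 h to NF 20 h was 2.19 (SE 0.18) and 1.48 (SE 0.17).

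The other listed gene for S3a, Medtr5g006440, had a shallower course. Its level was 47.0 CPM in the control, 36.9 and 42.4 CPM at NF 4 h and 52.0 and 62.4 CPM at NF 20 h. The higher NF 4 h library was at 0.902 of the control there and at 0.333 in Medtr1g103100. Pairs that fitted more than 1 gene were not counted by the authors, so the split between copies of a ribosomal protein gene is uncertain.

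Ribosomal protein genes outside the set were read the same way, together with the 2 members. The list, made by words in the annotation, held 84 genes, of which 81 were at 3 CPM or more in the control. The list includes Medtr7g073520, a ribosomal protein S6 kinase, by its wording. Their control level had a median of 37.2 CPM (5.72 to 168 CPM). The summed level of the list without the 2 members was 4017 CPM in the control, 3441 and 3938 CPM at NF 4 h and 4967 and 5630 CPM at NF 20 h. Both NF 4 h libraries were below the control and below both NF 20 h libraries in 50 of the 81 genes (61.7%, or 62.5% of 80 without the kinase), and the same order was found in 13.3% of the 14082 genes and in 8.92% of the 4348 annotated ones. The 2 members are among the 50 by the rule. The sizes were small. The median log2 change of the list was -0.19 at 4 h and 0.44 at 20 h against the control, where the median over all 22091 genes tested was -0.03 and -0.00.

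The NF 4 h libraries differed in this list. Replicate 1 was below the control in 70 of the 81 genes, at a median of 0.789 of the control, and replicate 2 in 51, at a median of 0.960. Of the 14082 genes, 57.8% and 52.6% were below the control in these libraries, at medians of 0.971 and 0.988. At NF 20 h, 4 genes of the list were below the control in replicate 1 and 2 in replicate 2, against 46.3% and 53.6% of the 14082 genes. After edgeR's quasi-likelihood test with Benjamini-Hochberg adjustment, 1 of the 83 list genes tested was called lower at NF 4 h (the member Medtr1g103100, where 0.158% of all genes were), and 3 rose at NF 20 h against the control (1.1% of all genes rose). DESeq2 called 7 of 84 higher at NF 20 h than in the control (2.6% of all genes). Between the NF treatments edgeR's test called 0 of the 83, of which 65 were higher at NF 20 h at an unadjusted p under 0.05 (5.61% of all genes were). DESeq2 called 31 of 84 higher at NF 20 h there (1.72% of all genes). Of the 84 genes, 42 are in the study's table of NF-responsive genes, which was chosen on these samples, so the direction of the list is not independent evidence. The annotation that made the list came in part from that table, and the share of all genes in it was not computed. Nothing is read from the count of 42.

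**Figure D3:**
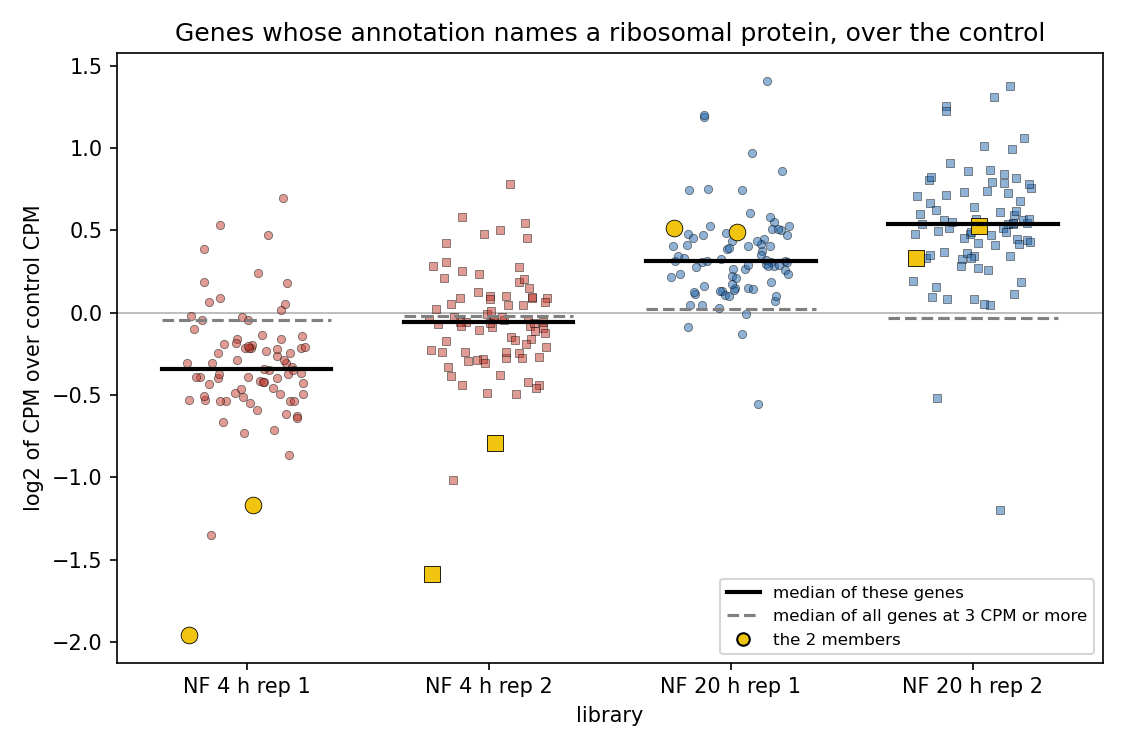
Each symbol is 1 of the 81 genes whose annotation names a ribosomal protein (an S6 kinase among them), the vertical axis is the log2 of its CPM in an NF library over the control, black bars are medians of the 81 genes, grey dashed bars medians of the 14082 genes at 3 CPM or more, and the 2 members are in yellow. Most symbols lie below 0 in NF 4 h replicate 1 and above 0 in both NF 20 h libraries, while those of NF 4 h replicate 2 lie on both sides of 0.

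Medtr4g074160 is annotated as a centromere/microtubule-binding protein, a name that in yeast was given to Cbf5, the enzyme that modifies bases of ribosomal RNA. It stood at 11.8 CPM in the control, at 3.39 and 4.16 CPM at NF 4 h and at 12.9 and 8.82 CPM at NF 20 h. Both NF 4 h values were the lowest, and the NF 20 h replicates fell on either side of the control. It was counted here in a list of 15 genes matched by words for the nucleolus and ribosome biogenesis, 13 of them at 3 CPM or more. Both NF 4 h libraries were below all 3 others in 5 of the 13 (38.5%), against 13.3% of the 14082 genes. Medtr4g074160 is among the 5 by the rule. The words also brought in 4 genes annotated as nucleolysin TIAR-like, pumilio-family or RNA polymerase I, II, and without these the count was 5 of 9. Of the 15, edgeR's test called 0 in each of the 3 comparisons. At an unadjusted p under 0.05, 2 were lower at NF 4 h (4.77% of all genes were), 3 higher at NF 20 h than at NF 4 h (5.61%) and 3 different at NF 20 h from the control (11.8%). DESeq2 called 1, 2 and 0 in that order, where it called 0.656%, 1.72% and 4.12% of all genes.

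Medtr1g090140 belongs to the TCP-1/cpn60 chaperonins, ring-shaped complexes that fold newly made proteins, actin and tubulin among the substrates of the cytosolic form. Its level was 23.5 CPM in the control, 9.76 and 12.5 CPM at NF 4 h and 27.2 and 19.6 CPM at NF 20 h. The next listed locus, Medtr1g090130, has the same annotation and stood at 24.1 CPM in the control, at 11.2 and 13.9 CPM at NF 4 h and at 22.8 and 19.5 CPM at NF 20 h. It missed the rule only through its NF 20 h libraries, the higher NF 4 h library being at 0.574 of the control and at 0.711 of the lower NF 20 h library. Of 44 genes matched by words for chaperones, heat shock and protein import at 3 CPM or more, 6 (13.6%) had both NF 4 h libraries below all 3 others, near the 13.3% of all genes. Medtr1g090140 is among these 6 by the rule. The 44 include 7 heat shock transcription factors and 2 HSPRO2-like genes, and without these the count was 6 of 35 (17.1%).

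A pair of members are annotated as transcription factors. Medtr2g084280, whose annotation names no family, was the third highest member, with 36.8 CPM in the control, 13.5 and 18.2 CPM at NF 4 h and 29.3 and 29.5 CPM at NF 20 h. Both NF 20 h libraries agreed closely and stayed below the control, at 0.795 and 0.801 of it. Medtr3g117120, for bZIP124 of the basic leucine zipper class, stood at 6.98 CPM in the control, at 1.43 and 1.91 CPM at NF 4 h and at 3.57 and 4.67 CPM at NF 20 h. It returned in part, to 0.512 and 0.6698 of the control. Of 3 other loci with the bZIP124 annotation, Medtr4g070860 and Medtr8g086020 had a higher NF 4 h library at 1.06 and 1.12 of the control, and Medtr1g022495 was at 0.0846 to 0.138 CPM.

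**Figure D4:**
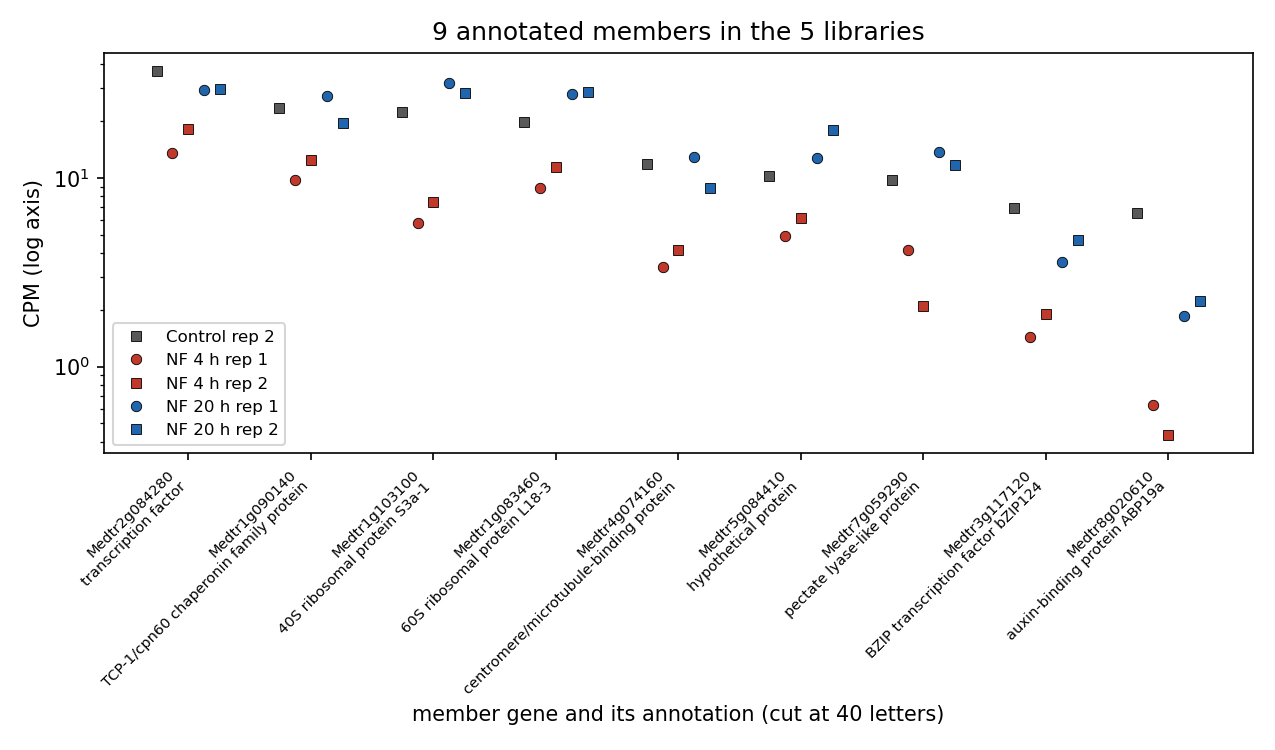
The vertical axis is the level in CPM on a log scale and each column is 1 of the 9 annotated members, with the control in grey, NF 4 h in red and NF 20 h in blue (circles replicate 1, squares replicate 2). In all 9 columns both red symbols lie below the grey and blue ones, and in the columns of bZIP124 and ABP19a the blue symbols stay under the grey one.

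Medtr8g020610, annotated as auxin-binding protein ABP19a and listed by the study as legume-specific, had the deepest drop of the 9 annotated members. Its counts were 297 pairs in the control, 27 and 17 at NF 4 h and 78 and 105 at NF 20 h. The NF 4 h libraries held at most 0.0956 of the control level, and the NF 20 h libraries came back to 0.285 and 0.341 of it. The name refers to germin-like proteins that were isolated by their binding of auxin in peach. The other ABP19a locus, Medtr2g045100, was near the floor, with 0.241 CPM in the control. The next listed locus, Medtr8g020630, is annotated as a germin family 3 protein. It stood at 2507 CPM in the control, at 1910 and 1797 CPM at NF 4 h and at 3942 and 3152 CPM at NF 20 h. How reads were split between these loci was not tested.

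Medtr7g059290, a pectate lyase-like gene with an Arabidopsis ortholog among root hair genes, is of a class of enzymes that cut pectin in the cell wall. It stood at 9.76 CPM in the control, at 4.18 and 2.09 CPM at NF 4 h and at 13.7 and 11.7 CPM at NF 20 h. Replicate 2 stood at 0.501 of replicate 1 at NF 4 h and at 0.855 of it at NF 20 h. The other annotated pectate lyase genes did not share the course. Medtr2g023990 and Medtr4g132460 had a higher NF 4 h library at 1.45 and 1.23 of the control, and Medtr3g086320, known as MtNPL, whose counterpart in Lotus japonicus is needed for infection by rhizobia, went from 0.0439 CPM in the control to 34.0 and 17.4 CPM at NF 4 h and 52.3 and 33.8 CPM at NF 20 h. Medtr5g084410, a hypothetical protein and the last annotated member, stood at 10.2 CPM in the control, at 4.94 and 6.15 CPM at NF 4 h and at 12.8 and 17.9 CPM at NF 20 h.

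The highest members have no annotation. Medtr1g098540 stood at 109 CPM in the control, at 59.3 and 67.6 CPM at NF 4 h and at 119 and 117 CPM at NF 20 h. Medtr3g087640 stood at 63.8 CPM in the control, at 35.8 and 37.3 CPM at NF 4 h and at 84.6 and 61.8 CPM at NF 20 h. Their higher NF 4 h library was at 0.618 and 0.586 of the control, a shallow dip in genes with many pairs. Medtr4g074260 was of the same kind, with 35.6 CPM in the control, 20.1 and 22.5 CPM at NF 4 h and 38.6 and 36.1 CPM at NF 20 h. So was Medtr2g084815, with 23.5 CPM in the control, 12.8 and 14.6 CPM at NF 4 h and 30.2 and 24.1 CPM at NF 20 h. In all 4 genes the NF 20 h libraries lay near the control or above it. Medtr4g074350 dipped further, from 26.1 CPM in the control to 8.40 and 8.70 CPM at NF 4 h, with 28.7 and 20.2 CPM at NF 20 h. Per kilobase, the order of control levels was Medtr1g098540 (76.5 FPKM), Medtr3g087640 (35.8 FPKM), Medtr4g074260 (31.8 FPKM), Medtr2g084280 (29.9 FPKM) and Medtr2g084815 (28.0 FPKM), and the last 3 cannot be ordered with 1 control library.

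The deepest dips relative to both sides were in genes of low level. Medtr6g088715 had 243 pairs in the control, 9 and 6 at NF 4 h and 151 and 142 at NF 20 h. The NF 4 h libraries held at most 0.0390 of the control and at most 0.0692 of the lower NF 20 h library. Medtr2g035230 stood at 5.29 CPM in the control, at 0.438 and 0.663 CPM at NF 4 h and at 4.07 and 6.60 CPM at NF 20 h, with the control between the NF 20 h replicates.

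Medtr4g008200, Medtr3g118030 and Medtr8g011650 each kept between 0.231 and 0.300 of the control in the higher NF 4 h library. Medtr4g008200 stood at 7.08 CPM in the control, at 2.12 and 2.07 CPM at NF 4 h and at 9.15 and 7.17 CPM at NF 20 h. Medtr3g118030 stood at 9.87 CPM in the control, at 2.28 and 2.12 CPM at NF 4 h and at 7.39 and 7.40 CPM at NF 20 h. Medtr8g011650 stood at 5.31 CPM in the control, at 1.45 and 1.25 CPM at NF 4 h and at 4.53 and 5.14 CPM at NF 20 h. In these 3 genes the replicates of each treatment lay close together, and both NF 20 h values were at 0.748 to 1.29 of the control.

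The 12 members that stayed low in at least 1 NF 20 h library had a control level of 3.38 to 11.5 CPM. Their summed level was 77.1 CPM in the control, 8.90 and 9.54 CPM at NF 4 h and 32.5 and 27.1 CPM at NF 20 h. They were lower at NF 4 h than the other members, with a median of 0.120 of the control in the higher NF 4 h library against 0.520 in the 40 that returned. Since the rule lets a gene with a deep dip pass at a low NF 20 h level, this difference is built into the choice.

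In 7 of them both NF 20 h libraries were under 0.5 of the control. The lowest was Medtr7g061720, with 176 pairs in the control, 0 and 0 at NF 4 h and 1 and 6 at NF 20 h. Read against a floor of 3 pairs per library, it was at least 50.4-fold lower at NF 4 h. Its NF 20 h libraries were at no more than 0.0329 of the control, so it did not return. With the expression filter and library-size scaling, edgeR's test over all libraries did not call this gene in any comparison. DESeq2 called it lower at NF 4 h than in the control. Medtr3g464330 had 301 pairs in the control, 2 and 8 at NF 4 h and 22 and 37 at NF 20 h. Medtr0045s0110 had 525 pairs in the control, 9 and 16 at NF 4 h and 36 and 84 at NF 20 h. These 2 genes came back to at most 0.154 of the control. Medtr7g117430 (234 pairs in the control, 14 and 11 at NF 4 h, 25 and 41 at NF 20 h), Medtr1g075610 (196, then 27 and 17, then 43 and 47) and Medtr5g066320 (154, then 18 and 20, then 40 and 59) came back to between 0.116 and 0.369 of the control. The seventh is the ABP19a gene described above.

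The remaining 5 came closer to the control. These were the bZIP124 gene and Medtr6g088715, described above, and Medtr5g041700 (477 pairs in the control, 56 and 81 at NF 4 h, 279 and 161 at NF 20 h), Medtr2g089340 (324, then 78 and 67, then 248 and 197) and Medtr3g096900 (269, then 84 and 56, then 289 and 180). In the last gene NF 20 h replicate 1 was above the control and replicate 2 below it.

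**Figure D5:**
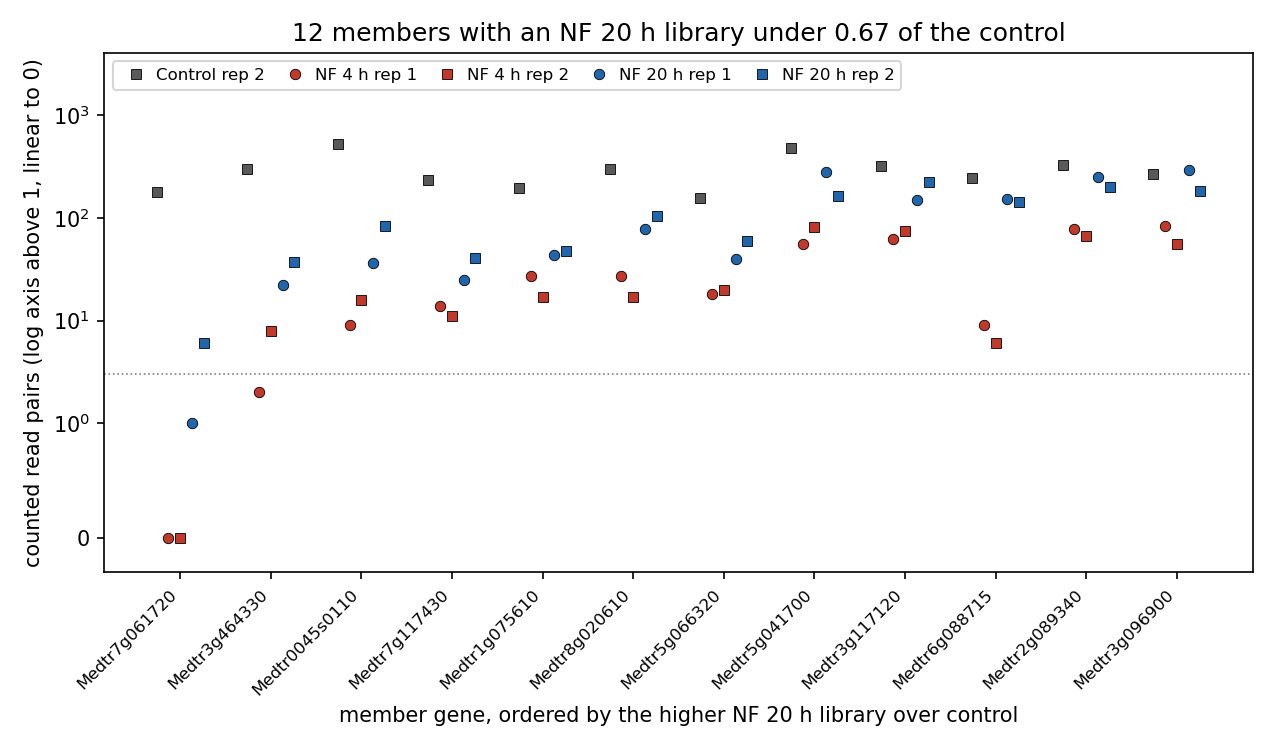
The vertical axis gives counted read pairs (log scale above 1, linear to 0, dotted line at 3 pairs) for the 12 members with an NF 20 h library under 0.67 of the control, ordered by how far the higher NF 20 h library returned. Blue NF 20 h symbols lie above both red NF 4 h symbols in each column, and on the left they stay far below the grey control.

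Low values in all 4 NF libraries against the single control were also found outside the set. Of the 14082 genes, 92 had all 4 NF libraries under 0.5 of the control, 7 of them members, and 47 had all 4 under 0.25, 5 of them members. For such genes an effect of NF and a high value of the 1 control library cannot be told apart. The study's table of NF-responsive genes, which drew on both control replicates, lists 6 of the 52 members. The share of all genes in that table was not computed here, so the count is not read as a result about the members. Medtr7g061720, Medtr3g464330, Medtr0045s0110 and Medtr6g088715 are not among these 6. The rise from 4 h to 20 h does not use the control, but the rule required it of every member.

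Replicates of the members differed more at NF 4 h than those of other genes up to the highest member level. Replicate 2 was above replicate 1 in 34 of the 51 members with counts, with a median ratio of 1.14, where the other genes had a median of 1.02. A difference of 1.5-fold or more between the NF 4 h replicates was seen in 12 of 51 members (23.5%) and in 6.46% of the other genes. At NF 20 h the median ratio of replicate 2 to replicate 1 was 0.941 in the members and 0.980 in the others, and 8 of 52 members (15.4%) against 11.5% of the others differed by 1.5-fold or more. Members are of lower level than these genes, and a match on level was not made.

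The widest NF 4 h spread was in Medtr3g464330, with 2 and 8 pairs. Members with higher counts and a wide spread included the pectate lyase-like gene described above, Medtr4g116080 (0.508 and 1.10 CPM at NF 4 h, 3.42 CPM in the control, a ratio of 2.16) and Medtr5g012930 (2.35 and 4.11 CPM, 6.30 CPM in the control, a ratio of 1.75). At NF 20 h, Medtr2g096610 stood at 3.72 and 7.65 CPM with a control of 4.83 CPM, and Medtr3g070920 at 4.10 and 7.29 CPM with a control of 3.55 CPM. The latter had the highest return of all members, at 2.05 times the control in replicate 2.

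The other members, all without annotation and all returned, filled the range between these cases. From 11.7 to 21.3 CPM in the control were Medtr1g045410, Medtr5g021800, Medtr4g008160, Medtr7g107420, Medtr1g114000 and Medtr2g072790, with a higher NF 4 h library at 0.482 to 0.520 of the control. Between 3.005 and 8.23 CPM were Medtr8g098325, Medtr5g083790, Medtr7g112880, Medtr1g050472, Medtr4g019090, Medtr6g005460, Medtr7g116340, Medtr8g079690, Medtr7g115440, Medtr8g067530, Medtr5g097230 and Medtr5g096530. In these 12 genes the higher NF 4 h library was at 0.451 to 0.641 of the control and the lower NF 20 h library at 0.826 to 1.35 of it.

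Nearest inside the limit were Medtr1g071040 (5.13 CPM in the control, 2.24 and 3.39 CPM at NF 4 h, 6.20 and 7.67 CPM at NF 20 h) and Medtr5g042870 (4.30, then 2.84 and 2.70, then 5.86 and 5.56 CPM), at ratios of 0.661 and 0.660. Nearest outside were Medtr4g081440, annotated as dihydroflavonol 4-reductase-like, an enzyme class of flavonoid synthesis (121 CPM in the control, 70.2 and 77.4 CPM at NF 4 h, 115 and 138 CPM at NF 20 h), and Medtr3g093790 (5.70, then 3.67 and 3.85, then 6.62 and 5.73 CPM), at 0.673 and 0.675. The limit thus divides genes of nearly equal course.

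A part of the reads that the rule did not use gave the same order for most members. The files also give a count of single reads, and those beyond 2 per counted pair were taken as unpaired. What the single-read count includes is not defined in the files, and the difference was below 0, and set to 0, in 450 to 553 transcripts per library. At least 30 such reads in the control were found for 37 members, none of them with a value below 0. In 32 of the 37, both NF 4 h libraries were below the control and both NF 20 h libraries when scaled to the total of such reads, against 12.8% of 12201 other genes. The higher NF 4 h library was at a median of 0.532 of the control, where other genes were at 1.04. For Medtr2g084280 there were 263 such reads in the control, 115 and 127 at NF 4 h and 219 and 275 at NF 20 h. These reads come from the same RNA and libraries, so they bear on counting and not on the spread between samples. The 5 members without the order were Medtr0045s0110, Medtr1g103100, Medtr3g117120, Medtr4g019090 and Medtr5g042870. For Medtr1g103100, the S3a-1 gene, there were 61 such reads in the control, 45 and 26 at NF 4 h and 37 and 86 at NF 20 h, and a dip was seen in replicate 2 alone.

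Members did not lie side by side. By the order of locus numbers, 0 members were next to another, and 3 pairs had fewer than 10 loci between them, all on chromosome 4: Medtr4g008160 and Medtr4g008200 (2 loci between), Medtr4g074260 and Medtr4g074350 (7), and Medtr4g074160 and Medtr4g074260 (8). Chromosomes 1 and 5 held 9 members each and chromosome 6 held 2. Of 102 loci next to a member, 43 were at 3 CPM or more in the control, and their higher NF 4 h library was at a median of 0.976 of the control. At most 0.67 of the control was found in 2 of the 43, where 2.76% of the 14082 genes were. These were the chaperonin locus Medtr1g090130 described above and Medtr3g087590 at 0.522.

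All 52 members passed the expression filter of the test, as a control of 3 CPM ensures. With edgeR's quasi-likelihood test and Benjamini-Hochberg adjustment over 22091 genes, 9 of the 52 were called lower at NF 4 h than in the control, where 0.158% of all genes were. They were Medtr0045s0110, Medtr1g075610, Medtr1g103100, Medtr2g035230, Medtr3g118030, Medtr3g464330, Medtr6g088715, Medtr7g117430 and Medtr8g020610, with log2 changes from -5.72 to -1.76. Between NF 4 h and NF 20 h, 1 member was called higher at 20 h, Medtr6g088715 with a log2 change of 4.16 (SE 0.32), where 0.0362% of all genes were. Against the control at NF 20 h, 1 member was called, Medtr7g117430, lower by a log2 change of -2.80 (SE 0.36), where 1.47% of all genes were called and 0.371% lower. The rule picked the members on these same contrasts, so the counts are given beside the shares and nothing is read from them. DESeq2 called 31, 43 and 6 members in the same 3 comparisons, where it called 0.656%, 1.72% and 4.12% of all genes. The test rests on 2 residual degrees of freedom from the NF pairs. Of the 40 members that returned, edgeR's test called 3 lower at NF 4 h, 0 between NF 4 h and NF 20 h and 0 at NF 20 h against the control. At an unadjusted p under 0.05 these were 39, 40 and 0 members, where 4.77%, 5.61% and 11.8% of all genes met that limit. DESeq2 called 19, 35 and 0 of the 40, beside the shares of all genes given above.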

How the data were processed

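The authors trimmed the read pairs of each root hair library and aligned them with Bowtie2 (version 2.0 in the submitters' processing notes) to the Mt4.0v1 transcripts. They deposited, per transcript, whole-number counts of pairs with both mates unambiguously on 1 gene, and counts of single reads, neither normalized. Strand use in counting is not given in the sources used here. CPM was computed from the pair counts and library totals, and FPKM as CPM per kilobase of the deposited length. The 5 libraries with files were analysed. Unpaired reads were taken as single-read counts minus 2 times the pair counts, with values below 0 set to 0.

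Members were found by the rule stated in the report, by a count of values and not by a test. One fit over the 5 libraries used edgeR 4.0.16 (R 4.3.3) with library-size normalization, its filter on expression and the quasi-likelihood test, with a Benjamini-Hochberg adjusted p under 0.05 as the limit. Replicate numbers were not used as a block, since nothing in the labels ties a number to a shared day or batch. Alternatives were DESeq2 1.42.0, TMM factors, no filter, the replicate block, other limits of the rule and each NF library left out. The edgeR fit was tested on simulated counts, for NF 4 h against the control and for NF 20 h against NF 4 h. Python 3.11.15, numpy 2.4.6, pandas 2.3.3 and matplotlib 3.10.9 made tables and figures.

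Members, role lists and markers were chosen with earlier results of these data known. Role lists take genes by words in the annotation, so that some members of a list are of another class, and counts without those were added after the data were seen. Genes named by rule were the 8 members with the highest control CPM, the 8 with the deepest dip relative to both sides, and the 2 genes nearest the limit on each side. The other annotated members, the 12 that did not return, copies and neighbours, and members with wide replicate spread were chosen after their values were seen, and the rest are named for completeness. Annotation came from the study's supplementary tables, which cover 5747 genes and were drawn up in part on responses in these samples. A RefSeq table of another assembly shares no identifier with the counts and was not used. Promoter motifs and sequences were not analysed here. Replicates are separate samples in the labels, and p-values measure only the spread between them.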

Additional observations from a re-analysis of the deposited data

Results flagged for a closer look

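With library-size scaling, the expression filter and no block, Medtr6g088715 was the only member whose NF treatments differed from each other by edgeR's quasi-likelihood test, with a log2 change of 4.16 from NF 4 h to NF 20 h. Its 243 control pairs became 9 and 6 at NF 4 h and 151 and 142 at NF 20 h. The rule chose the gene for this contrast, so the value is a description, and the call was lost when either NF 20 h library was left out.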

How the results depend on the processing

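The number of members depends on the limits. It was 32 with a limit of 0.6 and 117 with 0.75, 19 with a control of at least 10 CPM, 266 with a control count of 10 as the only minimum, and 175 with means of the replicates in place of the higher and lower library. TMM-scaled CPM gave 50, all among the 52. Leaving out an NF library gave 86 to 251 genes, with 107 without NF 4 h replicate 1, 251 without NF 4 h replicate 2, 86 without NF 20 h replicate 1 (51 of the 52 among them) and 111 without NF 20 h replicate 2.

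Counts of members called moved with the test as well. Lower at NF 4 h than in the control were 9, against 22 with no expression filter and 31 with DESeq2, where 0.158%, 0.452% and 0.656% of all genes were called. Higher at NF 20 h than at NF 4 h was 1, against 2 with TMM factors, 24 with no filter and 43 with DESeq2 (all genes 0.0362%, 0.0453%, 0.638% and 1.72%). Different at NF 20 h from the control was 1, against 2 with TMM factors, 6 with no filter and 6 with DESeq2 (all genes 1.47%, 1.66%, 2.38% and 4.12%). Leaving out each NF library gave 11 to 20, 0 to 4 and 1 to 6 (all genes 0.181% to 0.552%, 0% to 0.326% and 1.59% to 2.89%). The first count was 15 without NF 4 h replicate 2, 18 without NF 20 h replicate 1 and 20 without NF 20 h replicate 2. The second was 4 without NF 4 h replicate 1, 3 without NF 4 h replicate 2 and 0 without either NF 20 h library. The third was 6 without either NF 4 h library and 3 without NF 20 h replicate 2, and without NF 20 h replicate 1 the 1 gene called was another one. The rule chose the members on these same contrasts, so nothing is read from these counts. An alternative added after the data were seen, the 40 returned members alone, gave 3, 0 and 0. The cause of these shifts was not tested, except that a subset of members and fewer libraries are built into the last of them.

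With the replicate block, that is, with pairing by replicate number, 40 members were called lower at NF 4 h, 49 higher at NF 20 h than at NF 4 h and 9 different at NF 20 h from the control, where 3.18%, 4.68% and 12.2% of all genes were called. Only the NF treatments share both numbers, and the difference of replicate 2 from replicate 1 correlated by 0.505 across genes between them. No label ties a number to a common day. In the ribosomal protein list, the block called 55 of 83 genes higher at NF 20 h than in the control (6.74% of all genes) and 69 higher than at NF 4 h (4.68%). At NF 4 h against the control it called 5 lower (3.18%) and 4 higher. The list's median log2 change at 4 h was -0.07 with the block, near the -0.04 of all genes. With a library left out it lay between -0.34 (without NF 4 h replicate 2, all genes -0.06) and -0.06 (without NF 4 h replicate 1, all genes -0.02). Under TMM scaling 49 of 81 genes had NF 4 h lowest, all 49 among the 50 found with CPM, against 10.7% of all genes.

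The search for promoter motifs was not run. The single control library limits every value set against it, and counts under about 10 pairs limit the deepest dips.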
